A study of Mus musculus with 4 samples.

Results

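The change of RNA levels between leptotene/zygotene and pachytene spermatocytes was examined in mouse testis cells, with 1 library from each stage. The members were all genes of at least 5 FPKM (fragments per kilobase of transcript, scaled to the mapped fragments of the library, a level corrected for gene length) in either library, without the genes whose symbols name short structural RNAs. There were 9596 such genes among the 24426 of the deposited table. By class, 2 RNase P RNA genes and 1 telomerase RNA gene stayed among them, because the rule went by symbol. Of these, 7612 reached 5 FPKM in both libraries, 1235 only in the later one and 749 only in the earlier one. A gene that became a member through only 1 library is by that rule higher there, so counts over the members describe these libraries and do not test anything. The gene closest to the limit from inside, Slc39a11, had 3.22 FPKM in the later and 5.0018 FPKM in the earlier library, and the closest from outside, Hn1l, had 4.71 and 4.9991 FPKM in the same order.

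Both libraries came from male C57BL/6 mice of 17 days, with cells pooled from 5 mice. They are called labelled PaSC (pachytene) and labelled L/ZSC (leptotene/zygotene). The series also holds 1 library of spermatogonia (labelled SG, pooled from 30 mice of 7 days) and 1 of preleptotene spermatocytes (labelled PlpSC, 17 days). No animal carried a transgene, deletion or treatment that the labels name. Testes were digested with enzymes, Sertoli cells were given time to attach to the dish, and germ cells were then separated by sedimentation under gravity, so that a library can hold cells of neighbouring stages and somatic cells. With 1 library of each stage, no difference below has a replicate check, an error or a p-value.

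In the leptotene and zygotene stages, the chromosomes of a spermatocyte are broken at many places and pair with their homologs. In the pachytene stage the homologs are joined along their length by the synaptonemal complex, crossovers form, and the X and Y chromosomes are shut away in the sex body, where most of their genes are silent. Pachytene cells also begin to make many RNAs of the future sperm, and round spermatids, which come after the meiotic divisions, make those of the acrosome, the tail and the protamines.

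The labels are used with reserve. A list of lncRNA levels that accompanies the study was matched by gene to the deposited columns. The column labelled PlpSC was proportional to the list's column of that name, but that labelled SG followed the list's PaSC values in proportion. The columns labelled PaSC and L/ZSC were proportional to none, and by the spread of the ratios neither was closest to the list's column of its own name. Each library is therefore called by its label, and the directions below are those between the labelled columns.

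Markers were compared with the labels. The list of pachytene genes summed to 16738 FPKM in labelled PaSC against 16824 in labelled L/ZSC, and to 11486 FPKM in labelled SG. Ldhc, the lactate dehydrogenase of germ cells, had 5721 FPKM in labelled PaSC against 5468 FPKM in labelled L/ZSC. The meiotic entry gene Stra8 had 1.96 FPKM in labelled PaSC against 5.88 FPKM in labelled L/ZSC, and only Id4 of 18 genes of undifferentiated spermatogonia reached 5 FPKM. Genes of spermatids, a stage that neither label names, summed to 21277 FPKM in labelled PaSC against 4260.1 in labelled L/ZSC, over 33 of 33 listed genes, of which 30 were more than 1.5-fold higher in labelled PaSC. Fabp9, which was level, alone gave 2910 and 2617 FPKM of these sums, in the same order. Sertoli cell markers summed to 220.4 and 1179 FPKM over 25 genes, 24 of them lower in labelled PaSC, and Leydig cell markers to 2570.4 and 69.4 FPKM over 11, labelled PaSC first. No spermatid, Sertoli or Leydig marker was listed at 0 in either library. Macrophage markers summed to 20.8 and 31.5 FPKM over 15 genes, none above 6.88 FPKM, and endothelial markers to 9.45 and 9.70 FPKM over 10. In RNA from many cells, fewer cells of a type and less RNA per cell cannot be told apart. The part that these cells have in the differences described here was not tested.

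For each member the difference was taken as log2((PaSC + 0.5)/(L/ZSC + 0.5)), so that a positive value means a higher level in labelled PaSC and 1 unit is 2-fold. In labelled PaSC 2003 members were more than 1.5-fold higher, which is 20.9% of them, and 1644 were more than 1.5-fold lower, which is 17.1%. The median was -0.13, and the middle of the distribution from the lower to the upper quartile ran between -0.46 and 0.40. The libraries were used as deposited, with no further scaling. Scaled to the same sum of FPKM over all genes, which short RNAs in part set, every difference moved up by 0.38, the median became 0.24 and the calls 2983 higher and 461 lower, so that 86.6% of calls were higher against 54.9% as deposited. Scaled by the median ratio of genes, the differences moved up by 0.16 and the calls became 2328 higher and 918 lower, or 71.7% higher. Small differences below are therefore read against the shift of 0.38, and the large ones are not affected in direction. The higher and the lower side were unlike in size. More than 4-fold higher were 1098 members and more than 4-fold lower 112, and more than 16-fold higher were 327 against 2 that were as much lower. Of the 1098, 872 reached 5 FPKM only in labelled PaSC and 226 reached it in both libraries.

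At higher mean levels, the members higher in labelled PaSC fell into 2 bands. Among those with a mean level of at least 50 FPKM over both libraries, 912 had a difference between 0 and 1, 63 between 1 and 2, 25 between 2 and 3, 43 between 3 and 4, 89 between 4 and 5 and 23 between 5 and 6. The count therefore dipped at differences of 2 to 3 and was larger again at 4 to 5. On the lower side it fell off without a second band, with 1343 between -1 and 0, 34 between -2 and -1, and 9 below -2. The second band was also present at a mean of at least 20 FPKM, with 65 members at 2 to 3 and 169 at 4 to 5. Over all members the dip was shallow, with 460 at 1 to 2, 331 at 2 to 3, 440 at 3 to 4 and 254 at 4 to 5.

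**Figure D1:**
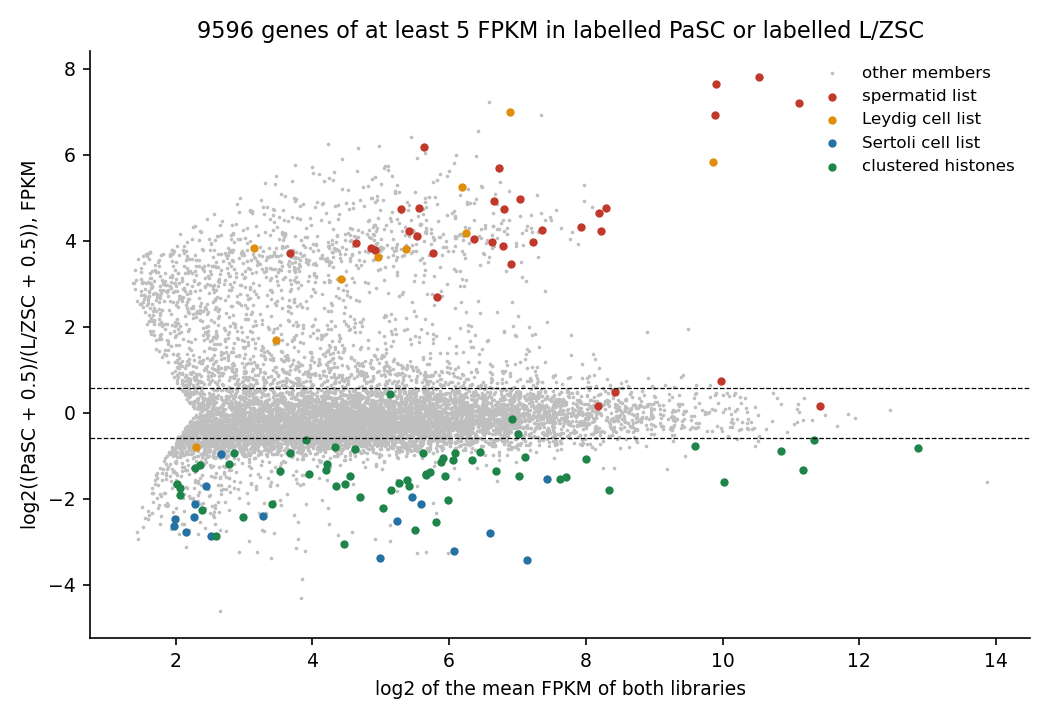
Difference between the libraries (vertical axis, log2((PaSC + 0.5)/(L/ZSC + 0.5)) of FPKM) against the log2 of the mean FPKM of both libraries (horizontal axis) for 9596 genes, 1 point each. Dashed lines mark 1.5-fold. Spermatid and Leydig genes lie mostly in the upper band, and Sertoli genes and clustered histones below 0.

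The 15 largest differences were led by the proteins that pack DNA in the sperm head. The protamine genes Prm1 and Prm2 had 2937 and 1914 FPKM in labelled PaSC, against 12.7 and 9.07 FPKM in labelled L/ZSC. The transition proteins Tnp1 and Tnp2, which replace histones before the protamines do, had 4407 and 1878 FPKM in labelled PaSC, against 29.5 and 14.96 FPKM in labelled L/ZSC. These 4 genes differed by 7.80, 7.64, 7.20 and 6.92, and they stood at 0.26 to 2.35 FPKM in labelled PlpSC and labelled SG. Spem1, a gene needed for normal sperm shape, had 98.6 FPKM in labelled PaSC against 0.870 FPKM in labelled L/ZSC. Of the other 10 genes, 6 are RIKEN transcripts, from 1700042G07Rik with 192 FPKM in labelled PaSC against 0.775 FPKM in labelled L/ZSC to 1700016P04Rik with 135 FPKM in labelled PaSC against 1.62 FPKM in labelled L/ZSC. Gm5767 was listed at 0 in labelled L/ZSC and at 37.4 FPKM in labelled PaSC, so its difference of 6.24 depends on the value added. The remaining 3 were Ptgds, a prostaglandin D synthase on the Leydig cell list, with 236 FPKM in labelled PaSC against 1.35 FPKM in labelled L/ZSC, the iron-siderophore binding lipocalin Lcn2 with 86.2 against 0.510 FPKM, and angiotensinogen, Agt, with 98.99 against 1.02 FPKM, in the same order.

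The 15 smallest differences were mixed. Amd1, which makes an enzyme of polyamine synthesis, had 0.0297 FPKM in labelled PaSC against 12.5 FPKM in labelled L/ZSC, a difference of -4.62. It was at 11.7 FPKM in labelled PlpSC and 0.165 FPKM in labelled SG, so it was close to 0 in labelled PaSC and labelled SG, and reads of genes with near copies can be divided between them. Apoc2, an apolipoprotein, had 0.920 FPKM in labelled PaSC against 27.6 FPKM in labelled L/ZSC. Cst12, Cldn11 and Aard are on the Sertoli cell list. Cst12, a cystatin, had 23.7 FPKM in labelled PaSC against 259 FPKM in labelled L/ZSC. Cldn11, a claudin of the barrier between Sertoli cells, had 5.15 FPKM in labelled PaSC against 58.3 FPKM in labelled L/ZSC. The androgen-binding globulin Shbg, also made by Sertoli cells, had 1.05 FPKM in labelled PaSC against 14.1 FPKM in labelled L/ZSC. Further genes were Wfdc1 and Wfdc10, 2 whey acidic proteins, Col18a1, a basement membrane collagen, the dopamine receptor Drd4, Basp1 and Dpysl4. The X-linked transcripts, 1700011M02Rik, Gm9112 and Etd, completed the group. Except Amd1, Apoc2 and Drd4, each of the 15 was higher in labelled PlpSC and labelled SG than in both spermatocyte libraries compared here.

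Genes of sperm nuclear packaging were divided. Of 23 listed genes 22 were in the table and 20 were members, of which 10 were more than 1.5-fold higher, all 10 by over 4-fold, and 5 lower, with a median of 1.94 against -0.13 over all members. The linker histones of spermatids were among those higher, with 208 against 3.54 FPKM for H1fnt and 467 against 22.9 FPKM for Hils1, labelled PaSC first. The testis histones that appear earlier were lower. Hist1h2ba, the H2B variant of testis, had 5386 FPKM in labelled PaSC against 9465 FPKM in labelled L/ZSC, and Hist1h2aa, its H2A partner, had 569 against 975 FPKM in the same order. The linker histone of spermatocytes, Hist1h1t, had 2016 against 3143 FPKM, and the ubiquitin ligase Rnf8 had 13.9 against 27.01 FPKM. Thus the protamines, transition proteins and linker histones of the spermatid named here and the histones of the spermatocyte lay on opposite sides of 0.

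Genes of the acrosome, the enzyme-filled cap of the sperm head, were mostly higher. Of 39 listed genes 34 were in the table and all 34 were members, with 24 higher, 1 lower and a median of 3.60. The values lay mostly in 2 groups, with 20 above 4-fold, 9 within 1.5-fold and 4 higher genes between them. In the first group were Izumo2, a paralog of the egg-binding protein Izumo1, with 91.8 FPKM in labelled PaSC against 3.92 FPKM in labelled L/ZSC, Lyzl4, a lysozyme-like protein, with 78.3 against 3.42 FPKM, and Spaca4, a sperm surface protein, with 314 against 15.97 FPKM. Izumo1 itself had 56.6 against 3.61 FPKM, and the proacrosin binding protein Acrbp 477 against 311 FPKM. Acrbp was thus between the groups. In the second were genes of very high level in both libraries, such as Spink2, an inhibitor of acrosomal proteases, with 1139.8 FPKM in labelled PaSC against 1051 FPKM in labelled L/ZSC, and Crisp2, a cysteine-rich secretory protein, with 1375 against 1073 FPKM. The vesicle traffic genes Pick1 and Agfg1, needed to build the acrosome, had 74.7 against 71.8 FPKM and 38.5 against 37.8 FPKM. Gopc, of the same process, was the 1 lower gene, with 16.2 against 25.9 FPKM.

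The tail gave the same picture for its sheath and dense fibres and another for its axoneme, the motor core. All 31 sheath and fibre genes were in the table and 30 were members, with 20 higher, 0 lower and a median of 3.51. The sheath scaffold genes Akap4 and Akap3 had 195 and 186 FPKM in labelled PaSC, against 5.95 and 11.3 FPKM in labelled L/ZSC. The dense fibre gene Odf1 had 563 FPKM in labelled PaSC against 21.8 FPKM in labelled L/ZSC, and the actin bundler Fscn3 39.5 against 0.324 FPKM. Others of the list were already high in labelled L/ZSC, among them Ropn1l with 1438 against 1127 FPKM, Meig1 with 1494 against 1365 FPKM, Rsph1 with 1043 against 1381 FPKM and Odf4 with 306 against 276 FPKM. Of 35 axonemal genes 32 were in the table and 28 were members, and of these 5 were higher, 0 lower and 23 within 1.5-fold, with a median of 0.08. The dynein light chain Dynlt1b had 630.2 FPKM in labelled PaSC against 605 FPKM in labelled L/ZSC, and the dynein assembly gene Ccdc39 99.4 against 127 FPKM. The tektins, filaments of the axonemal doublets, differed from one another. Tekt2 and Tekt4 had 60.9 and 279 FPKM in labelled PaSC, against 13.1 and 64.8 FPKM in labelled L/ZSC, Tekt5 had 58.9 against 27.6 FPKM and Tekt1 401 against 286 FPKM. All 14 members for intraflagellar transport, which builds the axoneme, lay between -0.69 and 0.33, with 0 higher and 2 lower.

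**Figure D2:**
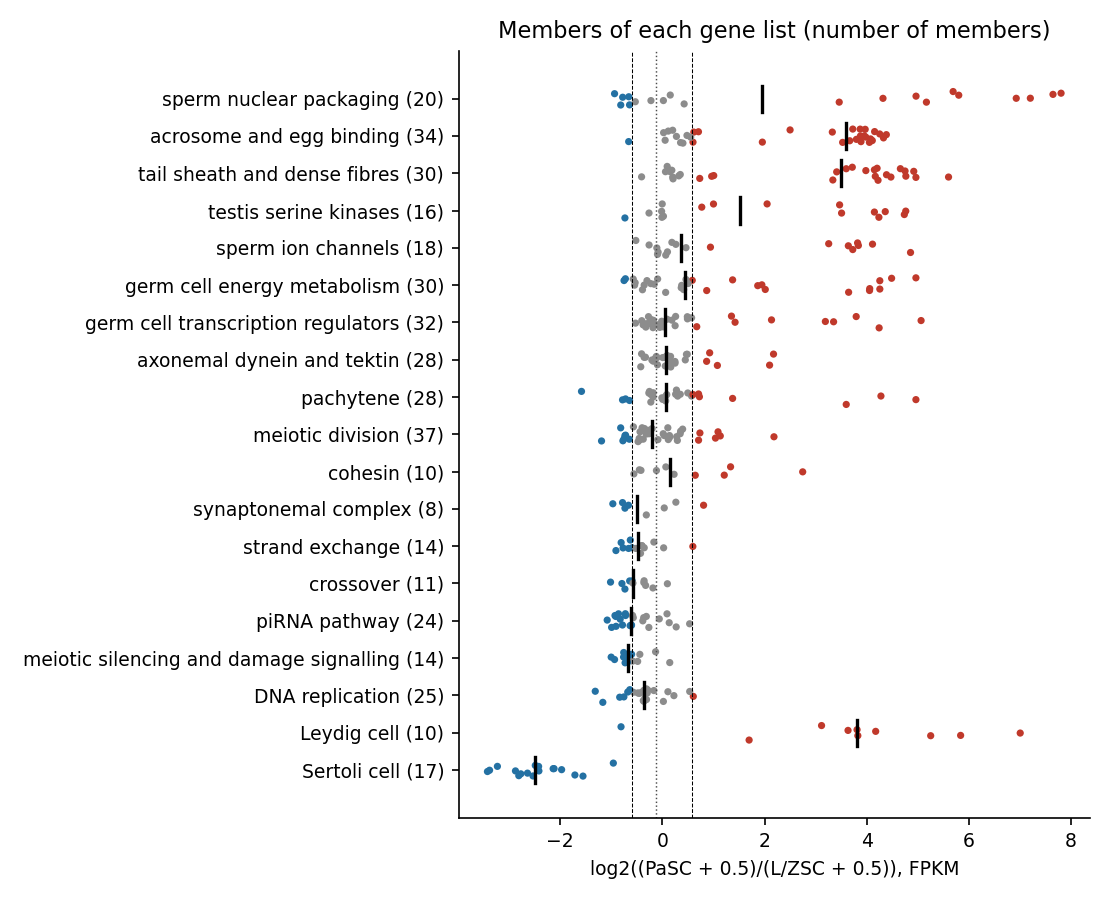
Differences of the members of 19 gene lists (horizontal axis, log2((PaSC + 0.5)/(L/ZSC + 0.5)) of FPKM, 1 point a gene). Red points are over 1.5-fold higher, blue points over 1.5-fold lower in labelled PaSC, dashed lines mark 1.5-fold, the dotted line the median of all members, and black bars the list medians. Lists of sperm structures split into points near 0 and points near 4, while lists of meiotic recombination lie a little below 0.

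Ion channels and signalling of the sperm tail were again split. Of 24 listed channel and transporter genes 21 were in the table and 18 were members, with 8 higher, 0 lower and a median of 0.36. The calcium channel of sperm, CatSper, is built of many subunits, and its genes were not alike. Catsper4, which makes a pore subunit, and Efcab9, a calcium sensor, had 88.1 and 185 FPKM in labelled PaSC, against 4.62 and 12.5 FPKM in labelled L/ZSC. The other pore subunits Catsper1 and Catsper3 had 24.1 and 54.5 FPKM in labelled PaSC, against 1.36 and 3.39 FPKM in labelled L/ZSC. The fourth pore subunit, Catsper2, had 169 against 122 FPKM, and the accessory subunits Catsperb, Catsperd, Catsperg1 and Catsperg2 were within 1.5-fold as well, with 79.3 against 84.03 FPKM for Catsperd and 92.6 against 99.7 FPKM for Catsperg2. So 3 of 4 pore genes and the sensor were far higher in labelled PaSC, and 1 pore gene and the 4 accessory genes were close to even. The sodium pump of sperm, Atp1a4, had 109.5 against 3.30 FPKM.

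Among 20 listed testis kinases, 19 were in the table and 16 were members, with 10 higher, 1 lower and a median of 1.53. The spermatid kinases Tssk1, Tssk2 and Tssk6 had 221, 215 and 91.8 FPKM in labelled PaSC, against 19.5, 7.59 and 2.90 FPKM in labelled L/ZSC. Their substrate Tsks had 176 against 8.10 FPKM. Stk33 was among the most even genes of all, with 170.5 FPKM in labelled PaSC against 171 FPKM in labelled L/ZSC, and Stk31 was the 1 lower gene, with 57.2 against 95.3 FPKM.

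Energy metabolism of germ cells had 31 of 32 listed genes in the table and 30 members, with 13 higher, 2 lower and a median of 0.44. Glycolytic isozymes of sperm were among the higher. Gapdhs, the sperm glyceraldehyde phosphate dehydrogenase, had 163 FPKM in labelled PaSC against 4.74 FPKM in labelled L/ZSC, and the aldolase Aldoart1 had 48.5 against 2.07 FPKM. The phosphoglycerate kinase Pgk2 had 398 against 153 FPKM. Ldhc, which is first made in meiotic cells, was even, as given above. The glucose transporter Slc2a3 had 1201 against 1749 FPKM and the testis cytochrome c, Cyct, 195 against 322 FPKM, the second of which was more than 1.5-fold lower.

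Chaperones, which fold proteins and many of which have forms used in spermatogenesis, had 29 listed genes and 27 members, with 7 higher, 4 lower and a median of -0.14, or 0.24 with the same sum of FPKM over all genes. These counts are near the shares over all members, of which 20.9% were higher and 17.1% lower. Hspa2, the heat shock protein of spermatocytes, had 1153 FPKM in labelled PaSC against 1345 FPKM in labelled L/ZSC, whereas Hspa1l, that of spermatids, had 81.5 against 2.64 FPKM. The testis calreticulin Calr3 had 37.9 against 1.48 FPKM and the HSP40 gene Dnajb7 63.8 against 1.57 FPKM. The surface protein Tex101 was lower, with 196 against 483 FPKM. Proteins that store mRNA until it is translated in later cells were close to even. Of 40 members of that list 7 were higher and 5 lower, again near the shares over all members. The Y-box proteins Ybx2 and Ybx3 had 893 and 1037 FPKM in labelled PaSC, against 889.5 and 1025 FPKM in labelled L/ZSC.

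Regulators of transcription were mostly level while a few stood far above. Of 37 genes, all in the table, 32 were members, 9 were higher, 0 lower and 23 within 1.5-fold, with a median of 0.06. The pachytene factors Tcfl5 and Mybl1 had 295 and 34.2 FPKM in labelled PaSC, against 334 and 41.1 FPKM in labelled L/ZSC. The ciliary factor Rfx2 had 114 against 95.7 FPKM and the cyclic AMP response factor Crem 125 against 83.6 FPKM. In contrast, Fhl5, a coactivator of Crem also called ACT, had 139 FPKM in labelled PaSC against 3.68 FPKM in labelled L/ZSC, and the kinesin Kif17, which carries that coactivator out of the nucleus, had 59.3 against 3.81 FPKM. Spz1, a spermatogenic leucine zipper factor, had 266 against 13.6 FPKM, and the SOX factor Sox30 had 19.7 against 12.2 FPKM.

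Genes of meiotic chromosomes were lower by small amounts or level. Of 10 listed synaptonemal complex genes, 9 were in the table and 8 were members, with 1 higher, 4 lower and a median of -0.49. The axis genes Sycp3 and Sycp2 had 129.7 and 75.4 FPKM in labelled PaSC, against 223 and 126 FPKM in labelled L/ZSC. The central element genes Syce1 and Syce3 had 384 against 374 FPKM and 263 against 218 FPKM, and Syce2 was the 1 higher, with 64.2 against 36.5 FPKM.

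Of 3 lists of recombination genes, those for strand exchange and crossovers were a little lower as well. Strand exchange, in which a broken end invades the homolog, had 19 listed genes, 17 in the table and 14 members, with 1 higher, 6 lower and a median of -0.47. Meiob, which binds single-stranded DNA, had 3.90 FPKM in labelled PaSC against 7.76 FPKM in labelled L/ZSC, its partner Spata22 had 14.9 against 26.4 FPKM, and the cofactor Psmc3ip, also called Hop2, 182 against 204 FPKM. For crossovers, 15 genes were listed, 12 were in the table and 11 were members, with 0 higher, 5 lower and a median of -0.58. Cdk2, a kinase found at crossover sites, had 57.3 against 95.5 FPKM, labelled PaSC first. For the formation of breaks 14 were listed, 11 were in the table and 6 were members, with a median of -0.30. Of these, 1 was higher and 1 lower, near the shares of 20.9% and 17.1% over all members. Spo11, the enzyme that makes the breaks, had 78.9 against 77.4 FPKM, and Hormad1, an axis protein on unpaired chromosomes, 58.3 against 98.9 FPKM.

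Cohesins, the rings that hold sister chromatids, were mixed. Of 13 listed genes 12 were in the table and 10 were members, with 4 higher, 0 lower, 6 within 1.5-fold and a median of 0.15. Over all 12 the median was -0.02, and 6 had more and 6 less FPKM in labelled PaSC. The meiotic kleisin Rec8 had 39.96 FPKM in labelled PaSC against 5.53 FPKM in labelled L/ZSC, a difference of 2.75. The core subunit Smc3 had 13.9 against 5.19 FPKM and the somatic Stag2 6.16 against 2.38 FPKM, while the meiotic Stag3 had 245 against 265 FPKM. Of these, Smc3 and Stag2 were higher still in labelled PlpSC, at 42.97 and 20.2 FPKM, whereas Rec8 had 7.90 FPKM there.

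Genes that signal unpaired chromosomes and silence the X and Y had 21 listed genes, all in the table, and 14 members, with 0 higher, 9 lower and a median of -0.67. H2afx, the histone variant phosphorylated in the sex body, had 465 FPKM in labelled PaSC against 932 FPKM in labelled L/ZSC. The kinase Atr, which phosphorylates it, had 143 against 226 FPKM, and Rad9a, of a sliding clamp that activates Atr, was level with 7.20 against 6.46 FPKM. The piRNA pathway, which makes small RNAs of the germ line, had 26 listed genes, all in the table, and 24 members, with 0 higher, 13 lower and a median of -0.60. The 2 of its genes with the highest level in labelled PaSC, Mael and Gtsf1, were not among the lower, with 1079.7 and 417 FPKM in labelled PaSC, against 1013 and 288 FPKM in labelled L/ZSC. The PIWI protein Piwil1 had 182 against 299 FPKM, the Tudor gene Tdrd5 61.6 against 123 FPKM, and Tex19.1 9.07 against 19.7 FPKM, all 3 of them lower, while Tdrd6 had 361 against 328 FPKM. With the 2 libraries scaled to the same sum of FPKM over all genes, every difference moved up by 0.38. The medians for the synaptonemal complex, strand exchange, crossovers, silencing and the piRNA pathway then lay between -0.29 and -0.11, and that for break formation was 0.07. The counts of lower genes in these lists hold for the libraries as deposited. Over all members, lower calls fell from 1644 to 461 with that scaling.

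Genes of the meiotic divisions did not stand out by their counts. Of 45 listed genes 43 were in the table and 37 were members, with 6 higher and 7 lower, shares near the 20.9% and 17.1% over all members, and with a median of -0.20, which turned to 0.18 with the same sum of FPKM over all genes. Single members differed in both directions. The phosphatase Cdc25c, which starts division, had 13.99 FPKM in labelled PaSC against 2.69 FPKM in labelled L/ZSC, its relative Cdc25a had 36.7 against 16.98 FPKM, and cyclin B1, Ccnb1, had 71.8 against 32.5 FPKM. The germ cell cyclin Ccna1 had 142 against 86.5 FPKM, while cyclin B2, Ccnb2, was within 1.5-fold with 147 against 115 FPKM, and cyclin A2, Ccna2, was lower with 3.09 against 5.42 FPKM. Among the lower were also Fbxo43, which holds the anaphase-promoting complex back, with 18.4 against 42.5 FPKM, and Cks2, a cyclin-dependent kinase subunit, with 263 against 463 FPKM. DNA replication had 34 genes in the table and 25 members, with 1 higher and 6 lower, beside 20.9% and 17.1% over all members. The median of -0.36 turned to 0.01 with the same sum of FPKM over all genes. Among the lower, the helicase subunits Mcm2 and Mcm3 had 1.999 and 4.65 FPKM in labelled PaSC, against 5.71 and 11.04 FPKM in labelled L/ZSC.

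Clustered histone genes were lower almost without exception. Of 68 such genes 59 were members, and 56 of these were more than 1.5-fold lower, 0 higher, with a median of -1.38 and a summed level of 12827 FPKM in labelled PaSC against 25141 FPKM in labelled L/ZSC. Hist1h4c, a replication-dependent histone H4, had 1313 FPKM in labelled PaSC against 3299 FPKM in labelled L/ZSC. Hist1h2bg had 4.31 against 39.7 FPKM and Hist1h2bk 11.5 against 79.04 FPKM, and Hist2h2aa2 was the highest of them by difference, with 40.4 against 29.7 FPKM. In labelled PlpSC the 68 genes summed to 54987 FPKM. Their mRNAs mostly have no poly(A) tail, and many copies are nearly identical, so a value can be shared between copies. Among 127 symbol stems with at least 10 members, Hist had the lowest median and Adam the highest.

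Several families known from testis had more higher than lower members, to unequal degrees. The ADAM family of membrane proteases and adhesion proteins had 33 genes in the table and 23 members, with 15 higher, 1 lower and a median of 3.30, and over all 33 the median was 0.44. Adam6a had 30.5 FPKM in labelled PaSC against 1.01 FPKM in labelled L/ZSC, Adam1a 60.9 against 3.24 FPKM, and Adam3, which sperm need to enter the oviduct, 481 against 291 FPKM. Adam2, the fertilin subunit, was level with 354 against 401 FPKM. Spata genes had 25 members of 28, with 18 higher, 1 lower and a median of 2.48. Among them Spata3 had 59.6 against 0.850 FPKM, and Spata4 and Spata33 were high in both libraries, with 968 against 933 FPKM and 1241 against 904 FPKM. RIKEN genes numbered in the series of 1700042G07Rik had 253 members of 353, with 169 higher and 12 lower. The Tex genes, named as testis expressed, were more even, with 12 higher, 5 lower and 8 neither of 25 members and a median of 0.43. By class of gene, 46.9% of 458 lncRNA members were higher and 10.3% lower, against 19.3% and 17.5% of 9020 protein-coding members.

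Tubulins, kinesins and serine proteases had members on both sides within a family. Of 13 tubulin members of 18, 4 were higher and 4 lower. Tuba8 had 91.6 FPKM in labelled PaSC against 1.02 FPKM in labelled L/ZSC, Tuba4a 24.9 against 1.997 FPKM and Tubb6 27.8 against 3.78 FPKM. Tuba1a and Tubb5, tubulins of many dividing cells, had 6.58 and 5.72 FPKM in labelled PaSC, against 53.5 and 41.98 FPKM in labelled L/ZSC. The most abundant, Tuba3a and Tuba3b, which are near copies of each other, had 2158 against 2448 FPKM and 2907 against 3603 FPKM. Of 27 kinesin members 7 were higher and 1 lower, a share of higher ones near the 20.9% over all members. Among them Kif2b had 201 against 9.97 FPKM and Kif9 169 against 139.8 FPKM. Of 20 Prss members 11 were higher and 2 lower, beside 20.9% and 17.1% over all members. Their median was 0.68, but over all 38 Prss genes in the table it was 0.06, so the excess rests on the level filter. Prss37, needed for sperm migration, had 68.4 against 0.792 FPKM, and Prss50 had 5.07 against 11.8 FPKM.

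Genes of general use were close to even. Of 79 members for cytosolic ribosomal proteins 1 was higher and 7 lower, with a median of -0.34. The respiratory chain had 2 higher and 7 lower of 87, with a median of -0.23, and the proteasome 3 higher and 8 lower of 45, with -0.30. These medians turned to 0.04, 0.15 and 0.08 with the same sum of FPKM over all genes, so their sign rests on the scaling. SR splicing factors had 0 higher and 6 lower of 10 and a median of -0.66, and hnRNP genes 1 higher and 6 lower of 20 and -0.49, and both stayed below 0 under each scaling. Srsf3 had 75.2 FPKM in labelled PaSC against 129 FPKM in labelled L/ZSC. Among 1066 members of at least 100 FPKM in both libraries, 247 differed by less than 0.1 on the log2 scale. The 5 most even were Actb, Atp5g1, Stk33, Dnajb2 and Puf60, with Actb, cytoplasmic beta actin, at 290.1 FPKM in labelled PaSC against 290.2 FPKM in labelled L/ZSC. Dnajb2 had 222 against 223 FPKM but 18.7 FPKM in labelled PlpSC, so it was even only between the libraries compared here.

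Many germ cell genes have a general counterpart, and 15 of 40 pairs examined had that counterpart on the X chromosome. In labelled PaSC the germ cell gene was the higher of the 2 in all 15 pairs, by 1.40 to 2074 times, and in labelled L/ZSC in 14, by 3.10 to 2831 times. Most of these germ cell genes were thus already the higher ones in labelled L/ZSC. Pgk2 stood at 398 FPKM in labelled PaSC against 153 in labelled L/ZSC, and X-linked Pgk1 at 8.38 and 8.77 FPKM. Pdha2, a pyruvate dehydrogenase subunit, had 197 against 230.0 FPKM, and Pdha1 1.22 against 1.30 FPKM. The centrin Cetn1 had 865 against 870.1 FPKM, against 2.63 and 3.03 FPKM for Cetn2 in the same order. The ribosomal protein gene Rpl10l had 365 against 386 FPKM and Rpl10 44.6 against 32.4 FPKM.

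The exception, with a ratio of 0.0971 in labelled L/ZSC, was G6pd2, an autosomal copy of glucose 6-phosphate dehydrogenase, with 8.67 FPKM in labelled PaSC against 0.265 FPKM in labelled L/ZSC, while X-linked G6pdx had 1.05 against 2.73 FPKM. Among the X-linked counterparts, the polyadenylation factor Cstf2 had 21.9 against 3.59 FPKM and the initiation factor Eif1ax 26.2 against 12.5 FPKM, both higher in labelled PaSC while their autosomal copies Cstf2t and Eif1a had 41.9 against 56.8 FPKM and 36.7 against 38.8 FPKM. Among autosomal pairs, Gapdhs exceeded Gapdh in labelled PaSC, 163 and 42.4 FPKM, but not in labelled L/ZSC, where they had 4.74 and 59.5 FPKM. The chaperone Calr3 had 37.9 against 1.48 FPKM and Calr 286 against 386 FPKM.

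**Figure D3:**
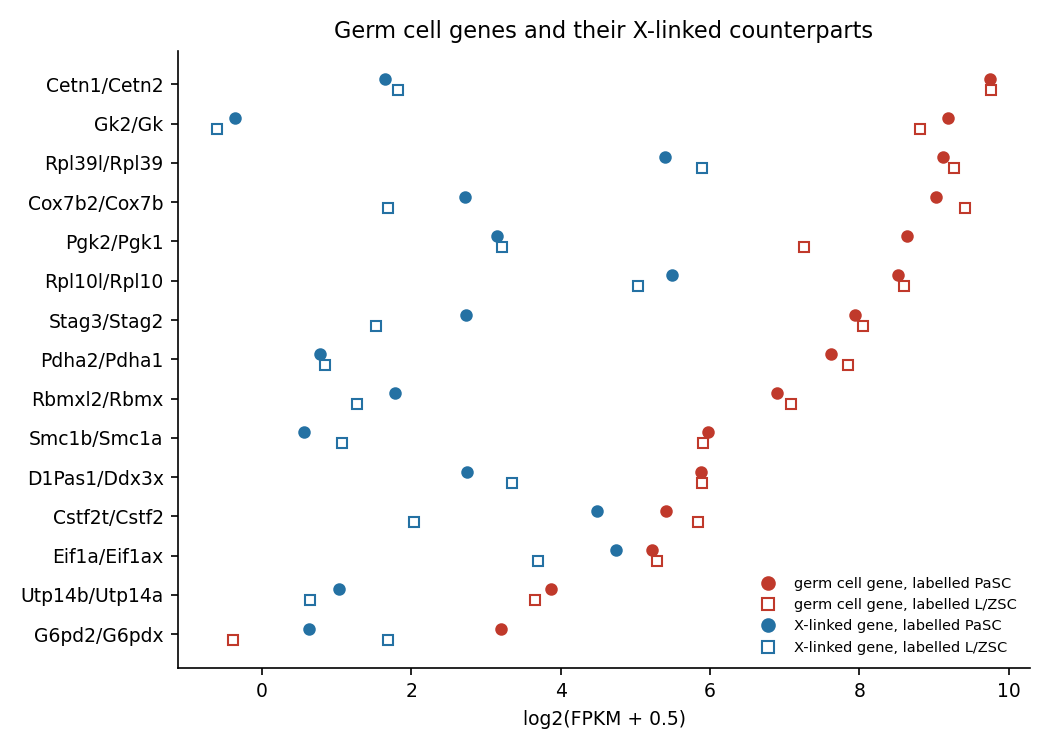
Levels (horizontal axis, log2(FPKM + 0.5)) of 15 germ cell genes (red) and their X-linked counterparts (blue) in labelled PaSC (filled circles) and labelled L/ZSC (open squares). Red symbols lie to the right of blue ones in every pair except G6pd2 in labelled L/ZSC.

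Among members, the sex chromosomes stood apart from the autosomes. Of 969 X-linked genes 200 were members, of which 121 were more than 1.5-fold higher, or 60.5%, and 50 lower, or 25%, with a median of 1.73. The 19 autosomes had medians between -0.25 and -0.06, with 16.1% to 27.5% of their members higher and 11.5% to 27.3% lower. Of the 200, 109 reached 5 FPKM only in labelled PaSC, 38 only in labelled L/ZSC, and 53 in both, and the 53 had a median of 0.06. Over all 969 genes the median was 0. On the Y chromosome 5 of 42 genes were members, 4 of them higher. They were the translation factor gene Eif2s3y with 20.1 against 5.96 FPKM, the ubiquitin enzyme gene Uba1y with 8.05 against 6.25 FPKM, the 1 not called, and Gm20815, Gm20854 and Gm20867, at 12.6 to 19.0 FPKM in labelled PaSC and 1.33 to 1.80 FPKM in labelled L/ZSC.

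The X-linked members could be divided by their level in labelled PlpSC, a library that the difference does not use. The 115 with at least 5 FPKM there had a median level of 34.2 FPKM there, 7.65 FPKM in labelled L/ZSC and then 7.34 FPKM in labelled PaSC. A gene low in labelled PlpSC could be a member only through a higher level in labelled PaSC or labelled L/ZSC, on the X chromosome as on the autosomes. Of the 115, 37 were higher in labelled PaSC than in labelled L/ZSC and 50 lower, with a median of -0.19. The 85 with less than 5 FPKM there had median levels of 0.0277, 0.937 and 11.3 FPKM in the same 3 libraries, and 84 of them were higher and 0 lower, with a median of 3.10. Autosomal members divided the same way had medians of -0.25 over 7476 and 1.39 over 1885, with 9.24% and 62.3% higher. Genes of at least 5 FPKM made up 35.3% of the X-linked genes in labelled PlpSC, then 9.39% in labelled L/ZSC, then 16.7% in labelled PaSC. On autosomes the share was 29.8% to 43.7% in labelled L/ZSC, and it was 32.1% to 46.8% in labelled PaSC.

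The X-linked genes with the largest differences included genes of the sperm tail and head. Akap4 was given above. Tsga8, a testis-specific gene, had 240.4 FPKM in labelled PaSC against 26.5 FPKM in labelled L/ZSC. 1700010D01Rik had 135 against 7.22 FPKM, Cypt1, a cysteine-rich perinuclear theca gene, 131 against 5.04 FPKM, Hypm 101 against 2.65 FPKM and 4930557A04Rik 42.7 against 0.680 FPKM. The last 3 were listed at 0 in labelled PlpSC. Those that were lower included 1700011M02Rik with 11.5 FPKM in labelled PaSC against 116 FPKM in labelled L/ZSC, Gm9112 with 8.22 against 83.9 FPKM and 1700018G05Rik with 7.46 against 63.1 FPKM. The X-linked lncRNA Tsx, known as a transcript of pachytene spermatocytes, had 2.72 against 16.7 FPKM, the Sertoli cell gene Rhox5 1.17 against 8.42 FPKM, and Etd 2.34 against 24.7 FPKM. Hprt, an X-linked purine salvage enzyme of most cells, had 2.90 against 6.15 FPKM. Mage genes gave 3 lower of 4 members, with Maged1 at 18.6 against 56.5 FPKM. More than 4-fold lower were 24 X-linked members, against 0 to 13 on each autosome, and more than 4-fold higher were 94, or 47.0%, against 7.08% to 15.2% of the members of each autosome. Of the 200 X-linked members, 109 had reached 5 FPKM only in labelled PaSC, so the share of higher ones rests on the level filter and tests nothing.

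**Figure D4:**
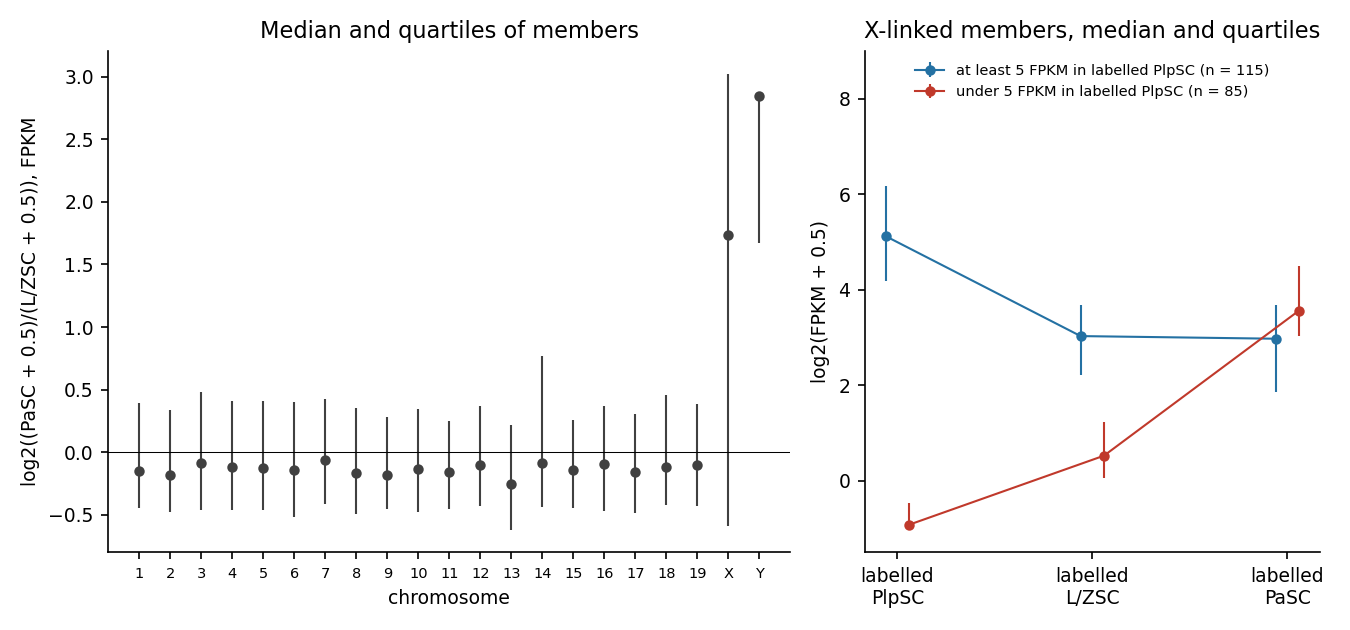
Left, median and quartiles of the difference (log2((PaSC + 0.5)/(L/ZSC + 0.5)) of FPKM) of the members on each chromosome. Right, median and quartiles of log2(FPKM + 0.5) of X-linked members in 3 libraries, divided at 5 FPKM in labelled PlpSC. The medians of X (200 members) and Y (5 members) lie at 1.73 and 2.85, above every autosome. That of X rests on the level filter and was 0.06 over the 53 members of at least 5 FPKM in both libraries. The 85 X-linked members low in labelled PlpSC are highest in labelled PaSC.

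Promoters of members differed in sequence along the scale of the difference. RefSeq promoters of 300 bases (250 before and 50 after the start, mouse genome GRCm38.p6) were matched by symbol for 7786 of 9332 members, taking the most upstream start of a gene. The ratio of observed CpG to that expected from the content of C and G, which is high in CpG islands and low where methylated cytosines have been lost in evolution, had a median of 0.821 for members within 1.5-fold and 0.803 for those 1.5 to 4-fold lower. It was 0.744 for members 1.5 to 4-fold higher, 0.254 for those 4 to 16-fold higher and 0.166 for those more than 16-fold higher, and 0.389 over 27025 promoters of all genes. The share of promoters with a ratio under 0.4 was 7.63% within 1.5-fold, 20.5% at 1.5 to 4-fold higher, 64.4% at 4 to 16-fold and 85.1% above 16-fold, and 50.9% over the promoters of all genes. Members more than 4-fold lower had a median of 0.544 and a share of 32.3%, so both sides of large differences had fewer CpGs than members within 1.5-fold. Limited to autosomal members, the medians were 0.822, 0.267 and 0.169 for the same 3 bins. Of all 1098 members more than 4-fold higher, 872 reached 5 FPKM only in labelled PaSC. The bins above 4-fold higher therefore rest in large part on the level filter, and their contrast with the other bins tests nothing.

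To show this contrast, the promoters of Prm1 and Prm2, with the largest differences, and of Mael, high and even in both libraries, are given on the sense strand with each CpG in capitals. Prm1 lies on the minus strand at chr16:10796774-10797073 and its promoter holds 1 CpG, Prm2 on the minus strand at chr16:10792056-10792355 holds 3, and Mael on the minus strand at chr1:166238695-166238994 holds 24.
Prm1: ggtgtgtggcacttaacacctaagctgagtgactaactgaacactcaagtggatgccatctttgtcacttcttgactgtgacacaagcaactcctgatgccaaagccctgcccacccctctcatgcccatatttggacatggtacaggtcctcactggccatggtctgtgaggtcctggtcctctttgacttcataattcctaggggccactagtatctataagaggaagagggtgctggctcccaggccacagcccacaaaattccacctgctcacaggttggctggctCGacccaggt
Prm2: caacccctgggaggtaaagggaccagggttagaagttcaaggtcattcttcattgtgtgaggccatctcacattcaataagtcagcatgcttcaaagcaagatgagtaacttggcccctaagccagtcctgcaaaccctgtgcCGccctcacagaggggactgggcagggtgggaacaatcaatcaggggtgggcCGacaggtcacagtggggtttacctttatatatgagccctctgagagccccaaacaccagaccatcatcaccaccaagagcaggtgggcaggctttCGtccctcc
Mael: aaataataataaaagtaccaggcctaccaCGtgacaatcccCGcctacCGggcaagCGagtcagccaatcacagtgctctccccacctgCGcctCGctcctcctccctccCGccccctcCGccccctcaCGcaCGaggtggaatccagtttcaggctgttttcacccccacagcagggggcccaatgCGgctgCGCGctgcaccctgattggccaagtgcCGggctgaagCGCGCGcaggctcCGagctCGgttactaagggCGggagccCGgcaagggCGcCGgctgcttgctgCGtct

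Then 4 short motifs were counted on both strands, each as a match of letters and not as a site in use. The letters GTTGCCA, part of the X-box that RFX factors of ciliated cells bind, were in 2.08% of promoters of members more than 4-fold lower, 2.37% of those 1.5 to 4-fold lower, 5.13% within 1.5-fold, 6.83% at 1.5 to 4-fold higher, 12.3% at 4 to 16-fold higher and 6.90% above 16-fold, and in 4.47% of promoters of all genes. The counts at the last 3 steps were 49 of 717, 75 of 610 and 18 of 261. So the share was largest at 4 to 16-fold and lower again for the largest differences. Related gene copies were counted as separate promoters. Among them were Speer4b, Speer4c, Speer4d, Speer4e, Klk1b21 and Klk1b27 at 4 to 16-fold, and Klk1b8 and Klk1b24 above 16-fold. The share without such copies was not examined. Of the 79 matches at 4 to 16-fold, 43.0% had their centre within 50 bases of the start. This was close to the 44.4% of 270 matches of members within 1.5-fold, the 47.4% of 19 above 16-fold and the 39.7% of 1262 over all promoters. The letters TGACGTCA, the cyclic AMP response element that CREM binds, were in 2.79% at 4 to 16-fold, 2.30% above 16-fold, 4.33% within 1.5-fold and 1.85% of all promoters. The letters GGCAGTT, bound by MYB factors, were in 5.74% and 4.60% of the same 2 higher bins, 3.98% within 1.5-fold and 4.15% of all. The TATA box letters TATAAA were in 9.34% and 11.9% of the same 2 higher bins, 6.11% within 1.5-fold and 14.2% of all, and their share was largest, at 18.8% of 96 promoters, in members more than 4-fold lower.

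The promoters of 3 genes with the X-box letters are shown because their products belong to the tail, to metabolism and to microtubules: Efcab9, G6pd2 and Ttll10, which adds glycine chains to proteins and had 23.5 FPKM in labelled PaSC against 0.813 FPKM in labelled L/ZSC. Capitals mark the letters GTTGCCA or, on the other strand, TGGCAAC. Efcab9 lies on the minus strand at chr11:32527525-32527824, G6pd2 on the plus strand at chr5:61808593-61808892 and Ttll10 on the minus strand at chr4:156050768-156051067.
Efcab9: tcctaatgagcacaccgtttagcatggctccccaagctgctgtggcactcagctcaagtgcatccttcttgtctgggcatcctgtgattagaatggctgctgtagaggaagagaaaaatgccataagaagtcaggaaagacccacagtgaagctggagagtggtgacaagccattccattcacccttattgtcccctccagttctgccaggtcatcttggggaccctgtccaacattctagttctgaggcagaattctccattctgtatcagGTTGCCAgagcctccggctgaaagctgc
G6pd2: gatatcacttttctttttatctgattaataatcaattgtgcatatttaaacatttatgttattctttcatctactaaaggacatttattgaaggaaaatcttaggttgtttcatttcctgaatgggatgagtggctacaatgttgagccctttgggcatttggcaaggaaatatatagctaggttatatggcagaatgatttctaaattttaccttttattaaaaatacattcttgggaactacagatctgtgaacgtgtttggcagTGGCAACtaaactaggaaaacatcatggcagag
Ttll10: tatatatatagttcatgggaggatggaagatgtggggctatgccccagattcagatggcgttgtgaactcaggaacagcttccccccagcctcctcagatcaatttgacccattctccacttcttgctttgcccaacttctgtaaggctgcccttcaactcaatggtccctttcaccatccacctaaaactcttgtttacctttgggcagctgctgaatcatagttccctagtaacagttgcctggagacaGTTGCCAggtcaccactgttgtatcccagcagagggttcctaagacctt

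**Figure D5:**
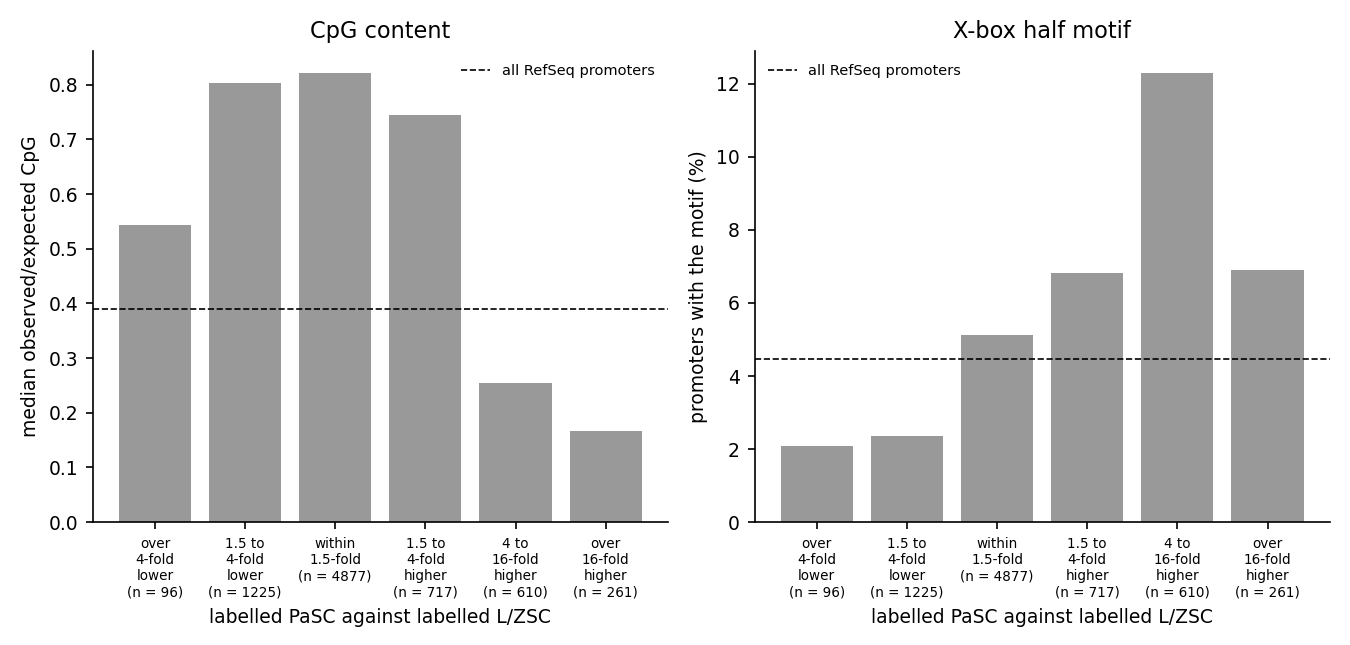
Left, median ratio of observed to expected CpG, and right, share of promoters with the X-box letters (%), for members in 6 bins of the difference between labelled PaSC and labelled L/ZSC. The number of promoters is under each bar, and dashed lines mark 27025 promoters of all genes. CpG content falls to 0.166 in the highest bin, while the motif's share peaks at 12.3% in the bin before it. Most members more than 4-fold higher reached 5 FPKM only in labelled PaSC.

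Genes of cells outside the germ line differed in both directions. Of 25 Sertoli cell genes, all in the table, 17 were members and all 17 were more than 1.5-fold lower, with a median of -2.49, and over all 25 the median was -2.12. The highest, Cst12 and Clu, had 23.7 and 87.6 FPKM in labelled PaSC, against 259 and 258 FPKM in labelled L/ZSC, and Dhh, a hedgehog signal of Sertoli cells, 2.29 against 8.61 FPKM. Of 11 Leydig cell genes 10 were members, with 9 higher, 1 lower and a median of 3.82. Insl3, an insulin-like hormone, had 1834 FPKM in labelled PaSC against 31.6 FPKM in labelled L/ZSC, the steroid hydroxylase Cyp17a1 142 against 3.25 FPKM, the side-chain cleavage enzyme Cyp11a1 77.8 against 5.08 FPKM, and the steroid dehydrogenase Hsd3b6 38.8 against 4.03 FPKM. The 1 lower was the orphan receptor Nr5a1, with 3.43 against 6.38 FPKM. The smooth muscle actin Actg2 of the myoid list was higher, with 90.3 against 3.33 FPKM, while Acta2 and Myl9 of the same list were lower, with 3.31 against 9.70 FPKM and 5.03 against 15.3 FPKM.

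Of 17 members that the study names, 2 were higher and 5 lower, beside 20.9% and 17.1% over all members. The lncRNA Rbakdn had 2818 FPKM in labelled PaSC against 2938 FPKM in labelled L/ZSC, a difference of -0.06, and was the tenth highest member in labelled PaSC. The splicing repressor Ptbp2 had 72.1 against 119.8 FPKM, more than 1.5-fold lower, and its paralog Ptbp1 54.4 against 64.5 FPKM. The nuclear lncRNA Malat1 had 315 against 179 FPKM, more than 1.5-fold higher. Of the 10 highest members, 7 were the same in both libraries, among them Rpl41, Ldhc, Hist1h2ba and Rbakdn. The highest level on any chromosome was on chromosome 14, at 7400 FPKM in labelled PaSC and 22525 FPKM in labelled L/ZSC.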

How the data were processed

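RNA was measured by rRNA-depleted, directional RNA sequencing of 4 libraries, each pooled from several mice. The authors deposited 1 table of FPKM (headed RPKM) from Cuffdiff, with 1 column a library. TopHat, Cuffdiff and mm10 come from the submitters' processing notes, with no versions given in the sources used here, and read counts were not used here. No source used here says whether counting used the strand, so overlapping and antisense genes, and near-identical copies such as clustered histones, tubulins, Adam6 and Amd1, are uncertain. No per-sample column was left unused (0).

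Values were analysed with Python 3.11.15, pandas 2.3.3, numpy 2.4.6 and matplotlib 3.10.9. Members had at least 5 FPKM in labelled PaSC or labelled L/ZSC. The difference was log2((PaSC + 0.5)/(L/ZSC + 0.5)), which understates changes of low genes, and a call was a difference of over 1.5-fold on this scale. Among 466 genes under 0.06 FPKM in both libraries, the most common ratio was 1.05, with 37.3% of genes within 0.075 log2 units of it, so depth could not be read more closely. Chromosomes and promoters were matched by symbol to RefSeq (GRCm38.p6), promoters without chromosome 18. The steps were tested on simulated data.

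The members, lists and families were chosen with earlier results of these data known. Named genes were the 15 largest and 15 smallest differences, the 2 highest, 3 largest and 3 smallest of each list and family, the study's genes, gene pairs, the extremes of X and Y, the 10 highest of each library and the 5 most even. Akap3, Odf1, Izumo1, Acrbp, H1fnt, Hils1, Mybl1, Rfx2, Crem, Sox30, Ccnb2 and the other CatSper genes were chosen after values were seen. So were the Speer4 and Klk1b genes, the printed promoters and the promoter sets of autosomal members. Other filters, added values, fold limits and scalings were tried.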

Additional observations from a re-analysis of the deposited data

How the results depend on the processing

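The counts of calls depended on the limits more than on the added value. Higher and lower members, 2003 and 1644, became 3082 and 2631 with genes of at least 1 FPKM, 3755 and 2930 with no filter, and 1098 and 112 at a limit of 4-fold. Lower members were 400 at a limit of 2-fold, 461 with the same sum over all genes and 918 with the median ratio. For X-linked members, 121 higher and 50 lower became 217 and 150 at 1 FPKM, 251 and 203 with no filter, and 71 and 24 at 10 FPKM, and the lower were 32 with a mean of at least 5 FPKM and 24 at 4-fold. The X-linked median was 0.33 at 1 FPKM, 0 with no filter and 2.34 at 10 FPKM, so it rests on the level filter. Among medians of over 1.5-fold the sign turned for interstitial fibroblast genes, from 4 members at -1.83, to 0.41 at 10 FPKM and with a mean of at least 5 FPKM, for ampliconic sex chromosome genes to -0.058 with no filter (1.67 as reported), for serpins to -0.11 at 10 FPKM and with a mean of at least 5 FPKM (1.58 as reported), and for Rhox to 1.45 at 1 FPKM (-2.42 as reported). Fewer or more genes entered under these filters. Of 89 medians 39, mostly small ones, changed sign with the scaling. Of the main values 35 moved by less than the limits used and 17 by more, and of the other values 1253 and 42, with 6 turns of a called value. No paired analysis was possible because each stage had 1 library. With 1 library a stage, no difference can be set against the spread between replicates, stage purity was not measured here, and the levels of genes near 5 FPKM are the least certain.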

Other observations

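F-box genes, which choose proteins for degradation, gave 45 members of 78 in the table, with 7 higher, 15 lower and a median of -0.43. The exocyst genes, which tether vesicles to the membrane, had 10 members with the stem Exoc, of which 0 were higher and 7 lower, with a median of -0.70. Histone methyltransferases had 2 higher and 6 lower of 20 members, and Suv39h2, the testis form of the enzyme that methylates histone H3 at heterochromatin, had 9.70 FPKM in labelled PaSC against 2.38 FPKM in labelled L/ZSC. Among BCL2 family genes Bcl2l14 stood apart, with 109.6 FPKM in labelled PaSC against 4.50 FPKM in labelled L/ZSC, while 2 of the 7 members were lower. The regulator of DNA methylation Dnmt3l had 10.9 FPKM in labelled PaSC against 1.25 FPKM in labelled L/ZSC.

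Symbol stems with medians far from that of all members included Cldn, the claudins, with 7 higher and 2 lower of 10 members and a median of 2.21, and Speer, a family of testis genes with near-identical copies, with 9 higher and 0 lower of 12 and a median of 2.41. Psma6, of the proteasome core, had 341 FPKM in labelled PaSC against 154 FPKM in labelled L/ZSC, and Psma8, a core subunit of spermatocytes, had 144 against 239 FPKM in the same order.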
